A study of Mus musculus with 9 samples.

Results

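MLL-AF9 leukemias that kept both floxed copies of Af10 were compared with Hoxa9-Meis1 leukemias in 6 of the 9 arrays of the series, chosen by their sample labels: 3 floxed arrays and 3 Hoxa9-Meis1 arrays. The floxed leukemias began as primary mouse leukemias made by the MLL-AF9 fusion in cells homozygous for the floxed Af10 allele. They were transduced with the empty MSCV-IRES-tdTomato vector (MIT), which carries no Cre, and were sorted and injected into secondary recipients, whose fresh bone marrow was then sorted for tdTomato. The Hoxa9-Meis1 leukemias were primary leukemias from cells transduced with Hoxa9 and Meis1, taken as fresh bone marrow with no sort or other treatment before RNA preparation. All groups carry the strain label C57/BL6 X 129, and 100 ng of total RNA entered each labelling. The remaining 3 arrays hold Af10-deleted MLL-AF9 leukemias, made with the Cre-expressing MIT vector, and entered the fit for its estimate of spread. Oncogene, transplant generation, vector and sorting all differ between the groups compared, so their parts in any difference below cannot be told apart. Nothing in the labels ties an array to its own mouse or its own founding leukemia, so the p-values gauge only how these samples vary, and that may be technical variation.

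MLL is a chromatin regulator that keeps Hox genes active, and its fusions hold the HoxA genes and their cofactor Meis1 in an active state in blood progenitors. AF10, encoded by Mllt10, is a partner of DOT1L, the enzyme that methylates histone H3 at lysine K79 on such genes. HOXA9 and MEIS1 bind DNA together with PBX proteins, and supplying both from a vector is enough to make myeloid leukemia in mice without an MLL fusion. The comparison thus sets leukemias with an upstream driver beside leukemias given the downstream factors directly.

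Levels below are log2(intensity + 1) for 1 probe set per gene, the probe set with the highest mean over the 9 arrays, and a difference is the floxed mean minus the Hoxa9-Meis1 mean on that scale. Values run in the order floxed 4, 5 and 6 (the labels' numbers) and Hoxa9-Meis1 1, 2 and 3 (numbered in accession order). For background, 9 probe sets of genes on the Y chromosome (Kdm5d, Eif2s3y, Uty and Ddx3y) were used, which read 2.97 to 4.71 across all arrays. Where a group mean lay in that range, the fold is a lower bound against 4.71. Pearson's r between arrays was 0.981 to 0.990 within these groups and 0.952 to 0.969 between them. Floxed 5 had the widest gap between the 3' and 5' Gapdh control probe sets, at 1.03 against 0.56 to 0.81 on the other 5 arrays.

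Of 18194 genes, 1618 differed at a limma adjusted p under 0.05, which is 8.89% of those tested. Among them 1015 (5.58%) were higher and 603 (3.31%) lower in the floxed leukemias. At least 2-fold differences numbered 401 higher and 320 lower, and at least 4-fold differences 123 and 83. The groups did not overlap for 1617 of the 1618 called genes, as they did not for 27.6% of all genes tested. The median difference over all genes was -0.01.

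**Figure D1:**
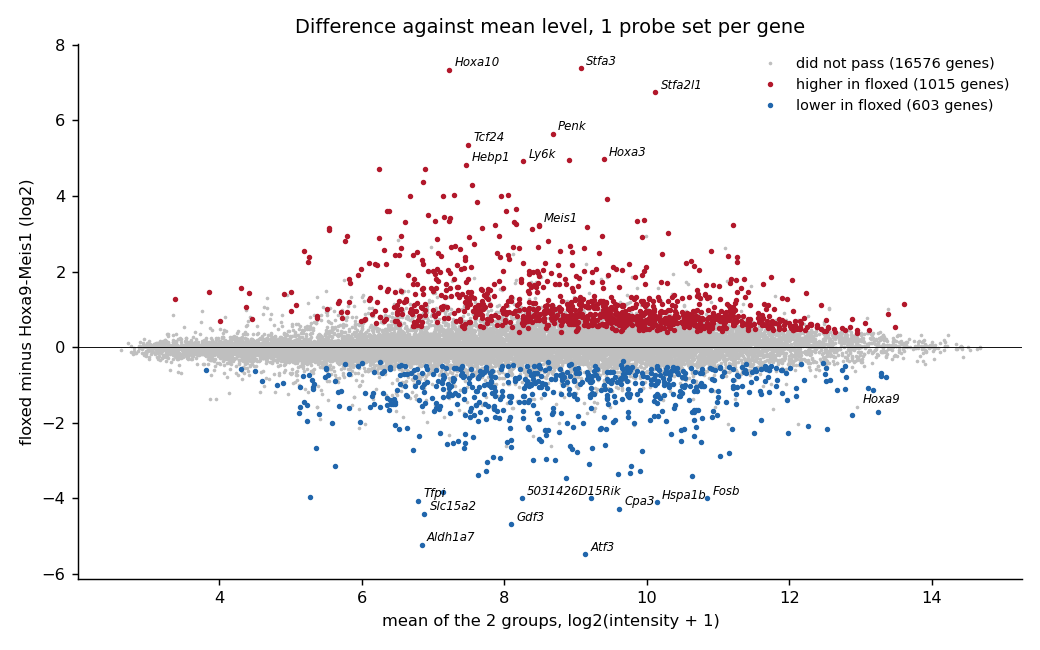
Difference between floxed and Hoxa9-Meis1 leukemias (log2, vertical) against the mean level of the 2 groups (log2 intensity, horizontal) for the 18194 genes tested, each point 1 gene, with called genes coloured by direction. The genes higher in floxed leukemias outnumber the lower ones 1015 to 603, and Stfa3, Hoxa10 and Stfa2l1 lie at the top.

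The driver genes themselves read differently by probe set. Hoxa9 has a pair of probe sets on this array. The brighter one read 12.52, 11.75 and 12.21 on the floxed arrays and 13.82, 13.82 and 13.58 on the Hoxa9-Meis1 arrays, so every Hoxa9-Meis1 array lay above every floxed array, at a difference of -1.58 (SE 0.63, limma adjusted p = 0.162). With only the 6 arrays in the fit this probe set was called lower in floxed leukemias. The other Hoxa9 probe set read 12.86, 13.07 and 12.73 on the floxed arrays and 3.98, 4.73 and 5.43 on the Hoxa9-Meis1 arrays, a difference of 8.17 (SE 0.68, limma adjusted p = 0.000262). Hoxa9 transcript was thus high in both groups by one probe set, and by the other high in floxed leukemias and near background in Hoxa9-Meis1 leukemias. Which part of the transcript each probe set reads was not analysed here, and neither was how much of it the vector carries.

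Meis1, the other transduced gene, was higher in the floxed leukemias by all 3 of its probe sets. Its brightest probe set read 9.73, 10.53 and 10.02 against 7.15, 6.74 and 6.72, 9.34-fold higher (limma adjusted p = 0.000362), and the other differences were 4.44 and 4.65 (limma adjusted p = 3.76e-05 and 0.000445). No Meis1 probe set was brighter in the Hoxa9-Meis1 leukemias. With the probes' positions not analysed here, these values do not check the transduced copy.

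The HoxA cluster, the row of homeobox genes that patterns the body axis and keeps blood progenitors immature, was higher in the floxed leukemias along most of its length. Of 9 HoxA genes tested, 7 were higher and 0 lower, against 5.58% of all genes higher and 3.31% lower, at a median difference of 2.25. Hoxa6 was not tested. Hoxa10 read 10.85, 11.17 and 10.67 on the floxed arrays and 3.77, 3.39 and 3.51 on the Hoxa9-Meis1 arrays, at least 72.8-fold higher (limma adjusted p = 0.000362). Its other probe set was near background on all 6 arrays, with a difference of 0.54 that did not pass (limma adjusted p = 0.0635). Hoxa3 read 11.67, 11.85 and 12.12 against 6.49, 6.996 and 7.24, 31.4-fold higher (limma adjusted p = 0.00254). Neither gene had a Hoxa9-Meis1 array within reach of the floxed ones.

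Hoxa5 read 9.98, 9.66 and 9.74 on the floxed arrays and 6.64, 6.44 and 6.36 on the Hoxa9-Meis1 arrays (9.93-fold, limma adjusted p = 6.25e-06). Hoxa7 read 10.87, 9.71 and 10.20 against 7.39, 7.53 and 7.82 (6.41-fold, limma adjusted p = 0.000812). For both genes every floxed array lay above every Hoxa9-Meis1 array, and the dimmer probe set of Hoxa5 differed by 4.79. Hoxa4 differed by 2.23 (SE 0.25, limma adjusted p = 0.00128) and Hoxa11 by 1.15 (SE 0.14, limma adjusted p = 0.00175). Hoxa2 was at least 3.15-fold higher (limma adjusted p = 0.00190), and Hoxa13, at the far end of the cluster, differed by 0.11 and did not pass. The called HoxA genes kept their calls whichever array was left out.

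In the sister clusters 11.1% of HoxB genes and 0% of HoxC and HoxD genes were called, against 8.89% of all genes. Counts in lists this short say little. Of 9 HoxB genes only Hoxb4, a regulator of stem cell expansion, was called, reading 9.04, 9.29 and 9.37 against 7.04, 6.85 and 6.80 (5.05-fold, limma adjusted p = 2.89e-05). Its other probe set differed by 0.56 and did not pass. Of 15 HoxC and HoxD genes limma called 0, with 0 at an unadjusted p under 0.05, and in 5 of them both group means lay in the background range.

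TALE proteins such as PBX and MEIS are the DNA-binding cofactors of the HOX proteins. Of 10 TALE genes 3 were higher and 0 lower, against 5.58% and 3.31% of all genes. Pbx3 read 11.69, 11.24 and 11.38 on the floxed arrays and 8.85, 8.91 and 9.18 on the Hoxa9-Meis1 arrays (5.49-fold, limma adjusted p = 0.000153), and its other probe set differed by 2.81. Pbx2 differed by 0.55 (SE 0.13, limma adjusted p = 0.0344) by 1 of its 3 probe sets. Leaving out 1 array ended the call of Pbx2 (any floxed array or Hoxa9-Meis1 1 or 2, up to 0.130), where the array and the limma adjusted p without it stand in parentheses. Meis2, Meis3, Pbx4, Pknox1, Pknox2, Tgif1 and Tgif2 did not pass, at differences of 0.18, 0.08, -0.29, 0.10, -0.20, -0.94 and -0.40. The small differences of Meis2, Meis3 and Pknox1 changed sign under some settings.

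**Figure D2:**
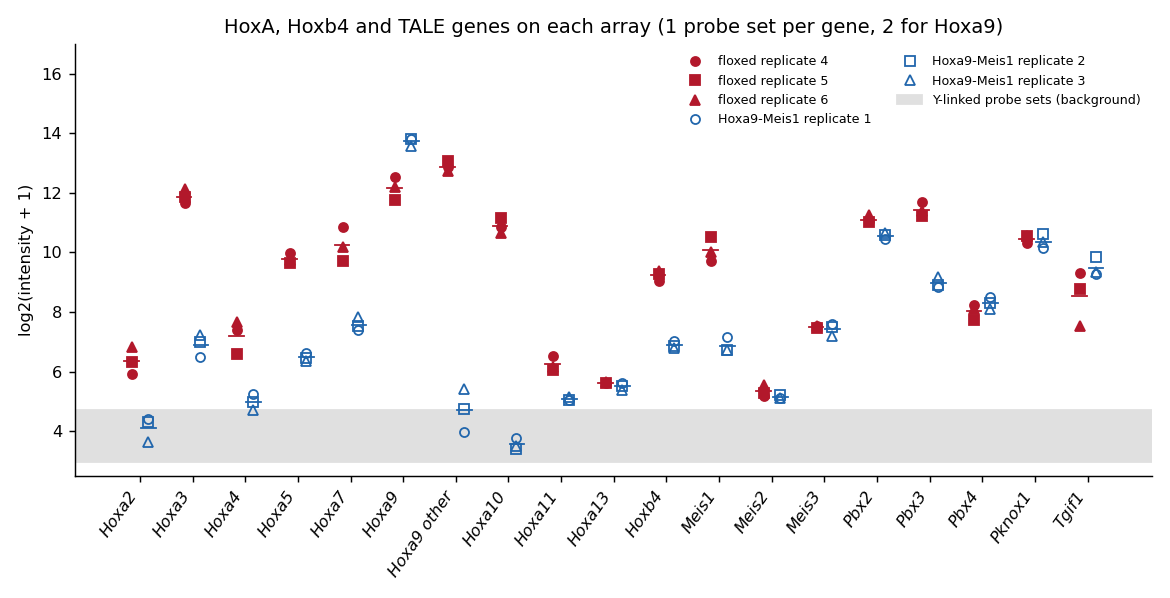
Level (log2 intensity, vertical) of HoxA genes, Hoxb4 and TALE genes on each of the 6 arrays, each dot 1 array, with Hoxa9 shown by both of its probe sets. Hoxa10, Hoxa3, Meis1 and Pbx3 are separated between the groups, the brighter Hoxa9 probe set is higher on the Hoxa9-Meis1 arrays and the other Hoxa9 probe set is higher on the floxed arrays.

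In the Af10-deleted leukemias, which differ from the floxed ones by Cre, the brighter Hoxa9 probe set read 10.20, 9.90 and 7.35, Hoxa10 8.75, 8.84 and 5.90 and Meis1 8.75, 9.42 and 8.35. Deleted replicate 6 was the lowest of the 3 by each of these probe sets, but not by another Meis1 probe set (8.31, 9.49 and 9.09). Hoxa10 and Meis1 lay between the floxed and the Hoxa9-Meis1 values on each deleted array, and the brighter Hoxa9 probe set lay below both groups. The other Hoxa9 probe set read 10.88, 10.54 and 7.96, between the groups on each deleted array, like Hoxa10 and Meis1.

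Mllt10, the Af10 gene itself, was bright in both groups. It read 11.20, 10.49 and 11.18 on the floxed arrays and 10.93, 10.67 and 10.46 on the Hoxa9-Meis1 arrays, overlapping ranges with a difference of 0.27 (SE 0.21, limma adjusted p = 0.493). Among its 4 probe sets, 2 were called higher in the floxed leukemias, by 0.47 and 0.62. Mllt3, the mouse AF9 gene, differed by -0.66 (SE 0.24, limma adjusted p = 0.127), on a probe set that gave the same value on all 3 floxed arrays and on Hoxa9-Meis1 3. Another of its 3 probe sets was called lower, by 1.06 (4.54, 5.02 and 4.74 against 6.20, 5.76 and 5.52). Kmt2a, the MLL gene, and Dot1l differed by -0.46 and -0.02 and did not pass. Of 23 DOT1L complex and elongation genes 1 was called (4.35%), against 8.89% of all genes. It was Ctr9, a subunit of the PAF complex (0.64), whose 5 probe sets ran from -0.86 to 0.64. The call of Ctr9 (any floxed array or Hoxa9-Meis1 1 or 3, up to 0.169) ended when 1 array was left out (array and limma adjusted p in parentheses).

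Genes known as direct targets of MLL fusions outside HoxA were split. Of 23 tested, 7 were higher and 3 lower in floxed leukemias, against 5.58% and 3.31% of all genes. The median difference was 0.31. The higher genes include Meis1 and Pbx3, already given above among the TALE genes. Igf2bp3, an RNA-binding protein of fetal cells, read 11.72, 12.01 and 11.68 against 8.59, 8.01 and 9.77 (8.07-fold, limma adjusted p = 0.00175), and all 6 of its probe sets were called. Mef2c, a transcription factor of lymphoid and myeloid progenitors, read 12.43, 12.59 and 12.38 against 9.38, 10.28 and 10.57 (5.24-fold, limma adjusted p = 0.00217), called by all 5 probe sets. Flt3, the receptor kinase of early progenitors, read 12.15, 11.77 and 11.35 against 9.13, 9.83 and 9.47 (4.86-fold, limma adjusted p = 0.00126). These 3 genes were separated between the groups on every array.

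Jmjd1c, a jumonji-domain protein named here after its value was seen, was higher by 1.17 (1 of its 3 probe sets), and Lmo2, an adaptor of blood transcription complexes, by 0.71. The lower members were the growth regulator Myc, Zeb2 (-1.03, by 3 of its 5 probe sets) and Arid5b (-0.57, by 3 of its 5). Myc read 11.51, 10.48 and 11.37 on the floxed arrays and 12.65, 12.36 and 11.94 on the Hoxa9-Meis1 arrays, a difference of -1.20 (SE 0.29, limma adjusted p = 0.0333) between groups close to each other at their edges. Without the array named, limma's adjusted p no longer met the threshold for Lmo2 (floxed 5 or 6 or any Hoxa9-Meis1 array, up to 0.0796), Myc (floxed 5 or Hoxa9-Meis1 1 or 2, up to 0.128) and Arid5b (floxed 4 or Hoxa9-Meis1 1, up to 0.0927). Among 21 genes linked to Hoxa9 and Meis1, Flt3 and Lmo2 were higher and Ccl4, Rgs1 and Camk2d lower (differences -3.32, -2.53 and -1.39, the last by 4 of its 7 probe sets).

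Besides Hoxa10 and Hoxa3, the widest rises were in genes of several kinds. Stfa3 and Stfa2l1 encode stefin A proteins, inhibitors of cysteine proteases. Stfa3 read 12.91, 12.24 and 13.15 on the floxed arrays and 4.95, 4.84 and 6.37 on the Hoxa9-Meis1 arrays (167-fold, limma adjusted p = 2.20e-05). Stfa2l1 read 13.80, 12.79 and 13.88 against 5.43, 5.26 and 9.55, so Hoxa9-Meis1 3 stood well above the other 2 of its group, and the mean difference was 6.75 (SE 0.98, limma adjusted p = 0.00419). Stefin genes are near-identical copies, so a probe set of one may read others.

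Penk, the precursor of the enkephalin opioid peptides, read 11.24, 11.27 and 11.997 against 5.95, 5.83 and 5.81 (49.8-fold, limma adjusted p = 5.85e-06). Tcf24, a basic helix-loop-helix transcription factor, read 10.01, 9.97 and 10.54 against 4.91, 4.89 and 4.64 (41.1-fold, limma adjusted p = 1.52e-06). Hebp1, a heme-binding protein, read 10.01, 9.32 and 10.31 against 5.43, 4.76 and 4.98 (28.4-fold, limma adjusted p = 2.09e-05). In each the spread within a group was far smaller than the distance between the groups. The rest of the widest rises were Col19a1, a collagen (4.95), Ly6k, a Ly6 surface protein (4.92, by 1 of its 2 probe sets), Kcnip3, a calcium-binding channel partner (4.29), Dock9, an activator of Cdc42 (4.03), Grb10, an adaptor of insulin signalling (4.03, by 2 of its 3 probe sets), and Ces1d, a carboxylesterase (4.01).

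Several genes went from background in one group to a clear level in the other. Besides Hoxa10, Skida1 read 8.92, 9.51 and 9.31 on the floxed arrays against 4.55, 4.66 and 4.42, at least 23.2-fold higher (limma adjusted p = 0.000820). Ly75, the endocytic receptor DEC-205 of dendritic cells, was at least 15.6-fold higher, Dennd5b, a Rab activator, at least 20.2-fold, Rnase2a, an eosinophil-type ribonuclease, at least 14.8-fold, and Gphn, the synaptic scaffold gephyrin, at least 11.1-fold. In the other direction Aldh1a7, an aldehyde dehydrogenase, read 3.98, 4.16 and 4.51 on the floxed arrays and 9.59, 9.81 and 8.98 on the Hoxa9-Meis1 arrays, at least 26.9-fold lower (limma adjusted p = 6.25e-06). Slc15a2, a peptide transporter, was at least 20.8-fold lower by 1 of its 3 probe sets. Lipo3, Dleu7, Srsf12 and Cav1 were lower by at least 5.83, 5.62, 3.98 and 3.67-fold.

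Atf3, a stress-induced transcription factor, led the lower genes. It read 6.61, 5.92 and 6.62 on the floxed arrays and 12.04, 11.32 and 12.27 on the Hoxa9-Meis1 arrays (45.0-fold lower, limma adjusted p = 2.09e-05). Gdf3, a ligand of the TGF-beta family, read 5.76, 5.57 and 5.90 against 9.60, 11.11 and 10.60 (25.8-fold lower, limma adjusted p = 0.000138). Tfpi, the inhibitor of tissue factor coagulation, read 4.48, 4.78 and 4.99 against 8.78, 8.77 and 8.92 (16.9-fold lower, limma adjusted p = 0.000111). Atf3, Gdf3 and Tfpi were each low on all 3 floxed arrays and high on all 3 Hoxa9-Meis1 arrays.

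Also among the 12 widest falls were Tnik, a kinase of the Wnt pathway (-3.85), Fam71a (-3.46), Tgm3, a transglutaminase (-3.42), Rab4a, a GTPase of endosome recycling (-3.38), and 5031426D15Rik (-4.002). Cpa3, Hspa1a, Hspa1b and Fosb complete them and are given with their groups below. The call of 5031426D15Rik (floxed 5 or 6 or Hoxa9-Meis1 1 or 2, up to 0.0960) needed the array named (limma adjusted p without it).

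Genes of cell division were mostly higher in floxed leukemias. Of 39 mitosis genes 27 were higher and 0 lower in floxed leukemias, against 5.58% and 3.31% of all genes. The median difference was 0.75, and 38 of the 39 differences were above 0. The count of higher calls fell to 16 without Hoxa9-Meis1 1. Relative to each gene's mean of the 6 arrays, the list's median was 0.32 to 0.45 on the floxed arrays and -0.53 to -0.23 on the Hoxa9-Meis1 arrays. Each floxed array thus lay above each Hoxa9-Meis1 array.

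Spc25, a subunit of the NDC80 kinetochore complex, read 9.31, 10.08 and 9.79 on the floxed arrays and 8.17, 8.52 and 8.51 on the Hoxa9-Meis1 arrays (2.499-fold, limma adjusted p = 0.00460). Nusap1, a spindle microtubule protein, differed by 1.27 (SE 0.16, limma adjusted p = 0.00211) by 1 of its 2 probe sets. Nek2, a centrosome kinase, differed by 1.26 (SE 0.18, limma adjusted p = 0.00353) by 3 of its 4 probe sets, and Ect2, which acts in cytokinesis, by 1.20 (SE 0.19, limma adjusted p = 0.00546). These 4 differences all lay between 2- and 3-fold. Mki67 and Foxm1 did not pass, at 0.17 and -0.08.

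DNA replication genes gave fewer calls. Of 42 tested, 10 were higher and 0 lower, against 5.58% and 3.31% of all genes, at a median of 0.35. The count was 4 without Hoxa9-Meis1 1 and 6 without floxed 4 or 5 or Hoxa9-Meis1 2. The clamp loader subunits Rfc5 and Rfc3 differed by 0.96 and 0.69, the polymerase epsilon subunit Pole2 by 0.71 and thymidine kinase Tk1 by 0.67. Of 27 G1 control genes 3 were higher, at a median of 0.46. Cdkn2c, the kinase inhibitor p18, read 12.23, 12.40 and 12.41 on the floxed arrays and 9.61, 10.07 and 10.16 on the Hoxa9-Meis1 arrays (5.29-fold, limma adjusted p = 7.91e-05). Cdkn1c, the inhibitor p57, differed by 1.66 and cyclin D1, Ccnd1, by 1.65, so both inhibitors and a cyclin were higher. E2f5 was at least 1.94-fold lower, by 1 of its 3 probe sets. In limma, the calls of Tk1 (any floxed array or Hoxa9-Meis1 1 or 3, up to 0.103), Cdkn1c (floxed 4 or Hoxa9-Meis1 2, up to 0.0699) and E2f5 (floxed 4 or 6 or Hoxa9-Meis1 1 or 3, up to 0.0881) did not pass without the array named, at the adjusted p given.

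Promoters of mitosis genes often carry the letters TTTGAA, the cell-cycle homology element bound by the DREAM complex, and CCAAT, bound by NF-Y. The 300 bases around the start sites of 4 such genes, chosen after their values were seen because each was higher in floxed leukemias and holds both motifs, are given from RefSeq (GRCm38.p6), from 250 bases before to 50 bases after the start. They run 5′ to 3′ on the gene's strand, and capitals mark TTTGAA and CCAAT on either strand, so that a CCAAT on the opposite strand reads ATTGG; no marked match overlaps another.
Plk1 (chr7:122159185-122159484, + strand): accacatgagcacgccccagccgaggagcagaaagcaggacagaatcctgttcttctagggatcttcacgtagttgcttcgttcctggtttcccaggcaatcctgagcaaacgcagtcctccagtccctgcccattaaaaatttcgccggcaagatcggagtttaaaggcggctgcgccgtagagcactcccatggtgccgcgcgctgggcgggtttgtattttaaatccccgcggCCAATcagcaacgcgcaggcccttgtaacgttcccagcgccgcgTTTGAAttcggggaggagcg
Ccnb2 (chr9:70421505-70421804, - strand): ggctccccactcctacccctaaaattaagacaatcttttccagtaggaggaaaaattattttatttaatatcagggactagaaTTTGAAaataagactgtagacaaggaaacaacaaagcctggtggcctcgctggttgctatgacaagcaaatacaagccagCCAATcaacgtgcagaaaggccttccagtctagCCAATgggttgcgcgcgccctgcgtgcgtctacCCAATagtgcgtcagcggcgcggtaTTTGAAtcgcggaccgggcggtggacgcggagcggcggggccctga
Cdk1 (chr10:69352863-69353162, - strand): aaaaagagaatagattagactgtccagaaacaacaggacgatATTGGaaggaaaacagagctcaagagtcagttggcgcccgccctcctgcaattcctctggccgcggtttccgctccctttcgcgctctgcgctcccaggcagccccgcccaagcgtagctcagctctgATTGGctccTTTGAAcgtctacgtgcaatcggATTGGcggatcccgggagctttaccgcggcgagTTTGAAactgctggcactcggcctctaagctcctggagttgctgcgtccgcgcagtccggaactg
Aurka (chr2:172370521-172370820, - strand): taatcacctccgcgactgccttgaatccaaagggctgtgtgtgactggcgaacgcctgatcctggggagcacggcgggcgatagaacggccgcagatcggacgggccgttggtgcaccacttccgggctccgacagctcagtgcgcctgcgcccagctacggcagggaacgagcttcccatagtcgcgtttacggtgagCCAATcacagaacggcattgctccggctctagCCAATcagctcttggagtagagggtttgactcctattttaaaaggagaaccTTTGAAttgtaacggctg
These genes encode the mitotic kinases PLK1, CDK1 and AURKA and the CDK1 partner cyclin B2. Ccnb2 read 11.46, 11.30 and 11.36 on the floxed arrays and 10.43, 10.40 and 10.59 on the Hoxa9-Meis1 arrays, a difference of 0.90 (SE 0.12, limma adjusted p = 0.00302). Cdk1 differed by 0.87 (SE 0.15, limma adjusted p = 0.00986), Aurka by 0.88 (SE 0.15, limma adjusted p = 0.00841) and Plk1 by 0.88 (SE 0.20, limma adjusted p = 0.0281). Searched on both strands, TTTGAA stood in the window of 23 of 32 mitosis genes with an entry (71.9%) and of 20.2% of all 27025 genes. CCAAT stood in 25 of the 32 (78.1%) and in 41.1% of all genes. A match is a description of the letters only. Omitting the array named raised the limma adjusted p past the threshold for Plk1 (floxed 4 or 6 or Hoxa9-Meis1 1 or 2, up to 0.107).

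Immediate early genes, which are switched on within minutes of stimulation, were often lower in floxed leukemias. Of 31 immediate early genes 16 were lower and 0 higher, at a median difference of -1.60. The count fell to 6 without Hoxa9-Meis1 1 and 9 without floxed 5, and 3.31% of all genes were lower. Relative to each gene's mean of the 6 arrays, the list's median was -1.01 to -0.20 on the floxed arrays and 0.33 to 1.11 on the Hoxa9-Meis1 arrays. Such genes also respond to handling of cells, and the floxed cells alone were sorted, so the part of the sort in this difference cannot be told apart from that of the leukemia.

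Fosb, a subunit of the AP-1 factor, read 10.56, 7.65 and 8.34 on the floxed arrays and 13.32, 12.48 and 12.75 on the Hoxa9-Meis1 arrays (16.03-fold lower, limma adjusted p = 0.00733). Egr1, a zinc finger factor, read 10.73, 8.84 and 9.66 against 13.58, 11.54 and 12.55 (7.02-fold lower, limma adjusted p = 0.0181). Floxed 4 was the highest floxed array for Fosb and for Egr1, still below every Hoxa9-Meis1 array. Gadd45b differed by -2.52 (SE 0.61, limma adjusted p = 0.0358), Fos by -2.18 (SE 0.40, limma adjusted p = 0.0124), Jun by -1.71 (SE 0.36, limma adjusted p = 0.0213) and Dusp1, the phosphatase that turns off MAP kinases, by -1.80 (SE 0.35, limma adjusted p = 0.0154). Fos, Jun and Dusp1 were named after their values were seen. Nfkbia and Fosl2, also named after their values were seen, differed by 0.05 and 0.47 and did not pass. Leaving out 1 array ended the calls of Egr1 (floxed 5 or Hoxa9-Meis1 1, up to 0.0641), Gadd45b (floxed 6 or any Hoxa9-Meis1 array, up to 0.119), Fos (Hoxa9-Meis1 1, 0.0533) and Jun (floxed 5 or 6 or Hoxa9-Meis1 1 or 2, up to 0.0845), where the array and the limma adjusted p without it stand in parentheses. The call of Dusp1 (floxed 5 or Hoxa9-Meis1 1, up to 0.0626) ended when 1 array was left out (array and limma adjusted p in parentheses).

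The cyclic AMP response element TGACGTCA stood in the promoter window of 3 of 27 immediate early genes (11.1%) and of 2.03% of all genes. Dusp1 is shown as 1 of the 3, with this element, which reads the same on both strands, in capitals.
Dusp1 (chr17:26508423-26508722, - strand): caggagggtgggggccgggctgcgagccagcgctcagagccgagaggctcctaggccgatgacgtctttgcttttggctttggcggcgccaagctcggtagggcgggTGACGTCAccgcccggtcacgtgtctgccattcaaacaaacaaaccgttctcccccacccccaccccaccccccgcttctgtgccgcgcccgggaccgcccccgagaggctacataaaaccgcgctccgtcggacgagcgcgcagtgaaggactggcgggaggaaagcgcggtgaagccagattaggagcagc
The CArG box, bound by serum response factor, likewise stood in 3 of the 27 and in 1.81% of all genes.

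Heat shock genes moved in part. Of 26 tested 5 were lower and 1 higher, against 3.31% and 5.58% of all genes, at a median of -0.05. Hspa1b, an inducible HSP70, read 9.50, 6.83 and 7.90 on the floxed arrays and 13.29, 10.83 and 12.47 on the Hoxa9-Meis1 arrays (17.3-fold lower, limma adjusted p = 0.0115). Hspa1a, its near-identical neighbour, read 8.69, 6.29 and 6.68 against 12.39, 9.52 and 11.74 (15.96-fold lower, limma adjusted p = 0.0318), and a probe set of one such gene may read both. Dnaja1, an HSP40 cochaperone, differed by -0.86, and Hspa5, the endoplasmic reticulum HSP70, by -0.68, each by 2 of 3 probe sets. The Dnajb6 gene was the higher member at 0.59, but its 4 probe sets ran from -0.69 to 0.59. Without the array named, limma's adjusted p no longer met the threshold for Hspa1a (floxed 5 or 6 or Hoxa9-Meis1 1 or 3, up to 0.123), Dnaja1 (floxed 5 or 6 or Hoxa9-Meis1 1, up to 0.0665) and Dnajb6 (floxed 5 or Hoxa9-Meis1 1 or 2, up to 0.0846).

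Of 22 unfolded protein response genes 7 were lower and 0 higher, against 3.31% and 5.58% of all genes, at a median of -0.33, and the count was 3 without Hoxa9-Meis1 1. Ern1, the IRE1 sensor, read 9.62, 9.84 and 9.84 on the floxed arrays and 11.60, 11.79 and 11.09 on the Hoxa9-Meis1 arrays (3.31-fold lower, limma adjusted p = 0.000918), called by 4 of its 5 probe sets. Ddit3, the stress factor CHOP, read 9.33, 9.16 and 9.71 against 11.26, 10.64 and 10.76 (2.80-fold lower, limma adjusted p = 0.00274). Dnajb9, a cochaperone, differed by -1.46 and Syvn1, a ligase of protein degradation, by -0.92. Not every member was lower: the chaperones Canx, Hsp90b1 and Pdia3, named after their values were seen, differed by 0.02, 0.03 and -0.12 and did not pass. Among 26 amino acid response genes 3 were lower and 1 higher. Beside Atf3 and Ddit3 they were Asns, asparagine synthetase (1.15), and Slc3a2, an amino acid transporter subunit (-1.24). The calls of Dnajb9 (Hoxa9-Meis1 1, 0.0562), Syvn1 (Hoxa9-Meis1 1, 0.0565) and Slc3a2 (floxed 6 or Hoxa9-Meis1 1 or 2, up to 0.0846) needed the array named (limma adjusted p without it).

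**Figure D3:**
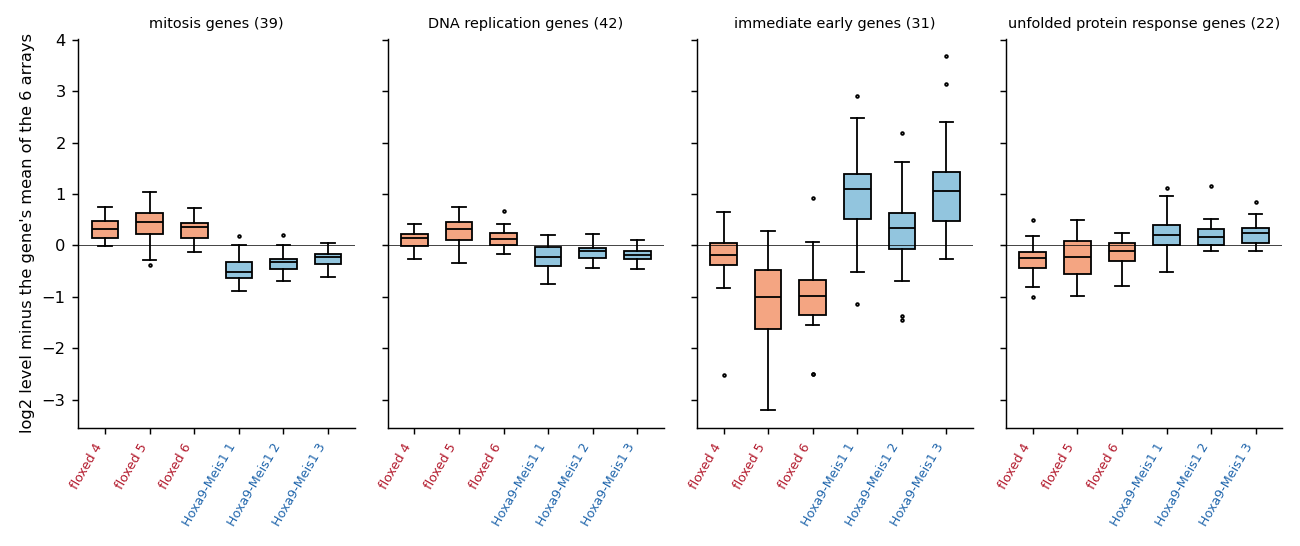
Level of each list member minus its mean of the 6 arrays (log2, vertical), 1 box per array and list, where the box spans the quartiles, the line is the median, whiskers reach 1.5 interquartile ranges and dots lie beyond. The mitosis boxes are higher and the immediate early boxes lower on all 3 floxed arrays than on the Hoxa9-Meis1 arrays.

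Both leukemias had high levels of the myeloid markers Mpo and Lyz2. These were named, with Csf1r and Itgam, as a check of the labelled bone marrow leukemia. The levels of Csf1r and Itgam are not given here. Mpo, the primary granule peroxidase, read 13.77, 13.85 and 13.98 on the floxed arrays and 14.24, 14.26 and 14.06 on the Hoxa9-Meis1 arrays, and Lyz2, lysozyme, 13.30, 13.36 and 13.68 against 13.60, 13.28 and 14.34. Kit, which was not among those check markers, read 8.97, 9.09 and 9.47 against 9.37, 9.93 and 8.97. These levels overlapped or lay close between the groups, and none of the 3 passed.

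Of 19 mast cell, basophil and eosinophil markers 4 were lower in floxed leukemias and 0 higher, against 3.31% and 5.58% of all genes. Across the list 6 of the 19 differences were above 0, up to 0.88, and Rnase2a, given above and no member of the list, was higher. Cpa3, the mast cell carboxypeptidase, read 5.99, 8.41 and 7.996 on the floxed arrays and 12.51, 12.75 and 9.99 on the Hoxa9-Meis1 arrays (19.5-fold lower, limma adjusted p = 0.0119). Ms4a2, the beta chain of the IgE receptor, read 6.10, 7.06 and 7.58 against 11.23, 10.48 and 7.98 (7.92-fold lower, limma adjusted p = 0.0360). Hoxa9-Meis1 3 was the lowest of its group in both and lay just above floxed 6 for Ms4a2. Fcer1a, the alpha chain of that receptor, was at least 2.98-fold lower, and Siglecf, a lectin of eosinophils, differed by -1.87. The summed linear intensity of the list was 5461 to 6234 on the floxed arrays and 7734 to 22883 on the Hoxa9-Meis1 arrays, with Hoxa9-Meis1 3 at the lower end. Whether more such cells or more RNA per cell stand behind a level cannot be told apart in bulk bone marrow, and the part of the tdTomato sort was not tested. In limma, the calls of Cpa3 (Hoxa9-Meis1 1, 0.0547), Ms4a2 (any floxed array or Hoxa9-Meis1 1 or 2, up to 0.122), Fcer1a (floxed 4 or 6 or Hoxa9-Meis1 1 or 2, up to 0.0641) and Siglecf (any floxed array or Hoxa9-Meis1 1 or 2, up to 0.118) did not pass without the array named, at the adjusted p given. The count was 0 without Hoxa9-Meis1 1, 1 without floxed 4 or 6 or Hoxa9-Meis1 2 and 2 without floxed 5.

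**Figure D4:**
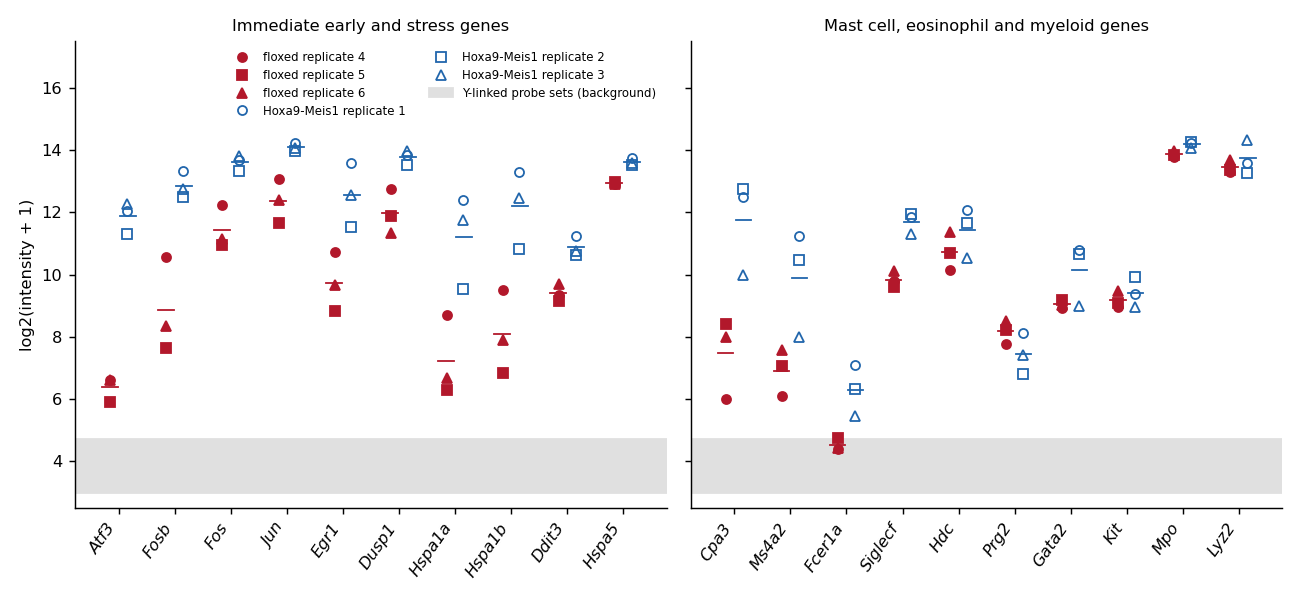
Level (log2 intensity, vertical) of stress-response genes (left panel) and of mast cell and eosinophil markers with Kit, Mpo and Lyz2 (right panel) on each of the 6 arrays, each dot 1 array. Atf3, Fosb and Hspa1b are lower on all 3 floxed arrays, Cpa3 spans 9.99 to 12.75 on the Hoxa9-Meis1 arrays and 5.99 to 8.41 on the floxed ones, and Mpo and Lyz2 lie at like levels in both groups.

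Markers of other blood and marrow cells gave few calls. With 8.89% of all genes called, counts such as 1 of 21 or 2 of 20 say little about a list, and these lists are given for their members. Of 21 B cell markers 4 were higher and 0 lower: Il7r, the interleukin-7 receptor, by 2.40 (1 of its 2 probe sets), Bank1 by 1.81, Pou2af1, a coactivator of immunoglobulin genes, by at least 3.34-fold, and Cd79b by 0.45. The B cell factor Pax5 read 6.71, 6.58 and 6.74 against 6.92, 6.85 and 6.78 and did not pass. The list's summed intensity was 17354 to 22506 on the floxed arrays and 14568 to 18646 on the Hoxa9-Meis1 arrays, ranges that overlap, and the part of such cells was not tested. Of 27 T and NK markers Cd5 (0.87), Prf1, perforin (-0.60), and Thy1 (-1.03) were called. Of 17 dendritic markers Flt3, Tcf4 (1.11, by 5 of its 6 probe sets) and Spib (0.87) were higher, transcription factors or receptors shared with progenitors. Omitting the array named raised the limma adjusted p past the threshold for Il7r (floxed 6 or any Hoxa9-Meis1 array, up to 0.114), Bank1 (floxed 6 or Hoxa9-Meis1 1, up to 0.0766), Pou2af1 (floxed 5 or Hoxa9-Meis1 1, up to 0.0580) and Cd79b (any array, up to 0.102). Leaving out 1 array ended the calls of Prf1 (Hoxa9-Meis1 1 or 2, up to 0.0718), Thy1 (any floxed array or Hoxa9-Meis1 1 or 2, up to 0.126), Tcf4 (any array, up to 0.123) and Spib (floxed 4 or Hoxa9-Meis1 1 or 2, up to 0.105), where the array and the limma adjusted p without it stand in parentheses.

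Of 21 erythroid markers only Rhd was called (1.14). Of 20 megakaryocyte markers Plek, pleckstrin (-1.504), and Itgb3, the platelet integrin beta chain (-0.82, by 1 of its 2 probe sets), were lower, with summed intensities of 6525 to 7224 on the floxed arrays and 9781 to 11316 on the Hoxa9-Meis1 arrays. Of 27 stromal and endothelial markers Vcam1, an adhesion molecule, read 9.43, 8.96 and 9.76 against 11.90, 11.36 and 11.49 (4.59-fold lower, limma adjusted p = 0.00446), and Eng, an endothelial receptor, differed by -0.75 (1 of its 2 probe sets). That list's summed intensity was 4612 to 5466 on the floxed arrays and 6462 to 8419 on the Hoxa9-Meis1 arrays. The megakaryocyte and stromal sums did not overlap between the groups, but they include the called genes Plek, Itgb3, Vcam1 and Eng. The median differences of the lists were small, at -0.03 and -0.12. Relative to each gene's mean of the 6 arrays, the lists' medians on single arrays overlapped between the groups. The part of such cells in the results was not tested. The calls of Plek (any array, up to 0.159), Itgb3 (floxed 4 or Hoxa9-Meis1 2, up to 0.0666) and Eng (Hoxa9-Meis1 1 or 2, up to 0.0622) ended when 1 array was left out (array and limma adjusted p in parentheses).

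Myeloid and progenitor lists had 3.23% (monocyte and macrophage genes) to 14.3% (myeloid transcription factors) of their genes called, against 8.89% of all genes. Of 13 primary granule genes Cst7, cystatin F, was lower (-1.04). Of 22 late neutrophil genes Wfdc21 (1.61) and Slpi, an elastase inhibitor (1.13), were higher and Csf3r, the G-CSF receptor, lower (-1.27). Of 31 monocyte genes only F13a1, coagulation factor XIII, was lower (-1.21). Of 28 myeloid transcription factors Tcf4 was higher, while Klf6 (-2.08), Zbtb16, the PLZF factor (-1.78, by 2 of its 3 probe sets), and Cebpa, a factor of granulocyte commitment (-1.13), were lower. Klf6 is also an immediate early gene. Among 26 stem and progenitor genes Prom1, the CD133 gene, was higher (2.07), and Cd27 (-2.42) was lower, as was Egr1. Without the array named, limma's adjusted p no longer met the threshold for Cst7 (floxed 5 or 6 or Hoxa9-Meis1 1 or 2, up to 0.115), Wfdc21 (floxed 4 or 6 or Hoxa9-Meis1 1 or 2, up to 0.145), Csf3r (floxed 4 or 5 or any Hoxa9-Meis1 array, up to 0.133) and Cebpa (floxed 5 or 6 or Hoxa9-Meis1 1, up to 0.0755). The call of Cd27 (any floxed array or Hoxa9-Meis1 1 or 2, up to 0.153) needed the array named (limma adjusted p without it).

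Signalling and adhesion lists had 6.06% (integrins and leukocyte adhesion) to 16.7% (cytokine receptors) of their genes called, against 8.89% of all genes. Of 30 cytokine receptors Il7r, Flt3 and Il31ra (1.26) were higher, and Csf3r and Il3ra, the interleukin-3 receptor alpha chain (-1.18), lower. Of 26 chemokine and chemokine receptor genes 3 were lower and 0 higher, against 3.31% and 5.58% of all genes. In this list 11 of the differences were above 0. Ccl4, a chemokine of activated myeloid cells, read 8.61, 7.67 and 8.02 on the floxed arrays and 11.82, 11.46 and 10.99 on the Hoxa9-Meis1 arrays (10.01-fold lower, limma adjusted p = 0.000277), and the chemokine Ccl2 and the receptor-like Ccrl2 differed by -2.26 and -1.96. Of 33 integrin and adhesion genes only Vcam1 and Itgb3 were called, both lower. Of 33 Wnt pathway genes the ligand Wnt10b was higher (1.41) and the receptor Fzd5 (-0.82, by 1 of its 2 probe sets) and Dvl1 (-0.61, by 1 of its 2 probe sets) lower. Of 24 Ras-MAPK output genes Ccnd1 was higher, and Egr1, Dusp5 (-1.32) and Myc lower. In limma, the calls of Il31ra (floxed 5 or 6 or Hoxa9-Meis1 1 or 2, up to 0.0718), Ccl2 (floxed 5 or 6 or Hoxa9-Meis1 1 or 3, up to 0.127), Ccrl2 (floxed 5 or 6 or Hoxa9-Meis1 1 or 3, up to 0.0876) and Fzd5 (floxed 4 or 5 or any Hoxa9-Meis1 array, up to 0.0904) did not pass without the array named, at the adjusted p given. Omitting the array named raised the limma adjusted p past the threshold for Dvl1 (floxed 5 or Hoxa9-Meis1 1 or 2, up to 0.0757) and Dusp5 (any floxed array or Hoxa9-Meis1 1 or 2, up to 0.0909).

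Of MHC class II genes 13.3% were called and of interferon response genes 7.41%, against 8.89% of all genes. Counts in lists this short, 0 included, say little. Of 15 MHC class II genes H2-Oa was higher (0.96) and the costimulator Cd80 lower (-1.27, by 1 of its 4 probe sets). Of 27 interferon response genes Ifit2 was higher (0.99) and Isg20 lower (-0.96). Limma called 0 of 14 MHC class I genes, 0 of 10 IgG Fc receptor genes and 0 of 17 Bcl2 family genes, with 3, 3 and 2 at an unadjusted p under 0.05. Leaving out 1 array ended the calls of H2-Oa (floxed 5 or 6 or any Hoxa9-Meis1 array, up to 0.0647), Cd80 (floxed 6, 0.0527), Ifit2 (floxed 5 or 6 or Hoxa9-Meis1 1, up to 0.0748) and Isg20 (floxed 5 or Hoxa9-Meis1 1 or 2, up to 0.0641), where the array and the limma adjusted p without it stand in parentheses.

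Mitochondrial lists had small median differences above 0. Of 74 mitochondrial ribosomal protein genes 9 were higher and 0 lower, against 5.58% and 3.31% of all genes. The list's median was 0.23, and the calls were led by Mrps35, Mrpl27, Mrpl48 and Mrps18c (0.98, 0.68, 0.63 and 0.60). The count was 1 without Hoxa9-Meis1 1, 2 without Hoxa9-Meis1 2, 3 without floxed 5 and 4 without floxed 4. Of 69 oxidative phosphorylation subunits 4 were higher, at a median of 0.15. That share, 5.80%, was near the 5.58% of all genes called higher. The 4 were Cox6c, Ndufb3, Ndufb6 and Ndufs5 (0.52, 0.46, 0.57 and 0.61). Of 46 Myc and ribosome biogenesis genes Imp4 was higher (0.62) and Myc lower, at a median of 0.10. Of 28 glycolysis genes Pfkfb3 was lower (-0.65), and of 21 cholesterol synthesis genes Idi1 was higher (0.54) and Insig1, the sterol sensor partner, lower (-1.05). The calls of Mrps18c (Hoxa9-Meis1 1, 0.0552), Mrpl27 (floxed 5 or Hoxa9-Meis1 1 or 2, up to 0.0830), Mrpl48 (floxed 4 or 5 or any Hoxa9-Meis1 array, up to 0.163) and Cox6c (floxed 4 or 5 or Hoxa9-Meis1 1 or 2, up to 0.0827) ended when 1 array was left out (array and limma adjusted p in parentheses). Without the array named, limma's adjusted p no longer met the threshold for Ndufb3 (any floxed array or Hoxa9-Meis1 1 or 2, up to 0.102), Ndufb6 (any floxed array or Hoxa9-Meis1 1 or 2, up to 0.129), Ndufs5 (Hoxa9-Meis1 1, 0.0561) and Imp4 (any floxed array or Hoxa9-Meis1 1 or 2, up to 0.106). The calls of Pfkfb3 (floxed 5 or Hoxa9-Meis1 1 or 2, up to 0.0897) and Idi1 (floxed 5 or 6 or Hoxa9-Meis1 1 or 2, up to 0.109) needed the array named (limma adjusted p without it).

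Regulator lists of p53 targets and chromatin enzymes closed the survey. Over all genes 5.58% were higher and 3.31% lower. Of 21 p53 targets Phlda3, Gtse1 and Ei24 were higher (1.05, 0.85 and 0.82) and Btg2 and Gadd45a lower (-2.17 and -1.61), of which Btg2 is also an immediate early gene and Gtse1 a cell cycle gene. Of 43 histone and DNA methylation regulators Kdm5b, a demethylase of histone H3 at lysine K4, read 7.14, 7.93 and 7.73 on the floxed arrays and 10.71, 10.56 and 9.63 on the Hoxa9-Meis1 arrays (6.51-fold lower, limma adjusted p = 0.00114). Suz12, a subunit of the Polycomb repressive complex, was higher (0.50, by 1 of its 6 probe sets). In limma, the calls of Phlda3 (floxed 4 or 6 or any Hoxa9-Meis1 array, up to 0.0915), Ei24 (Hoxa9-Meis1 1 or 2, up to 0.0595), Btg2 (floxed 5 or Hoxa9-Meis1 1, up to 0.0621) and Gadd45a (Hoxa9-Meis1 1, 0.0533) did not pass without the array named, at the adjusted p given. Omitting the array named raised the limma adjusted p past the threshold for Suz12 (any array, up to 0.156).

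**Figure D5:**
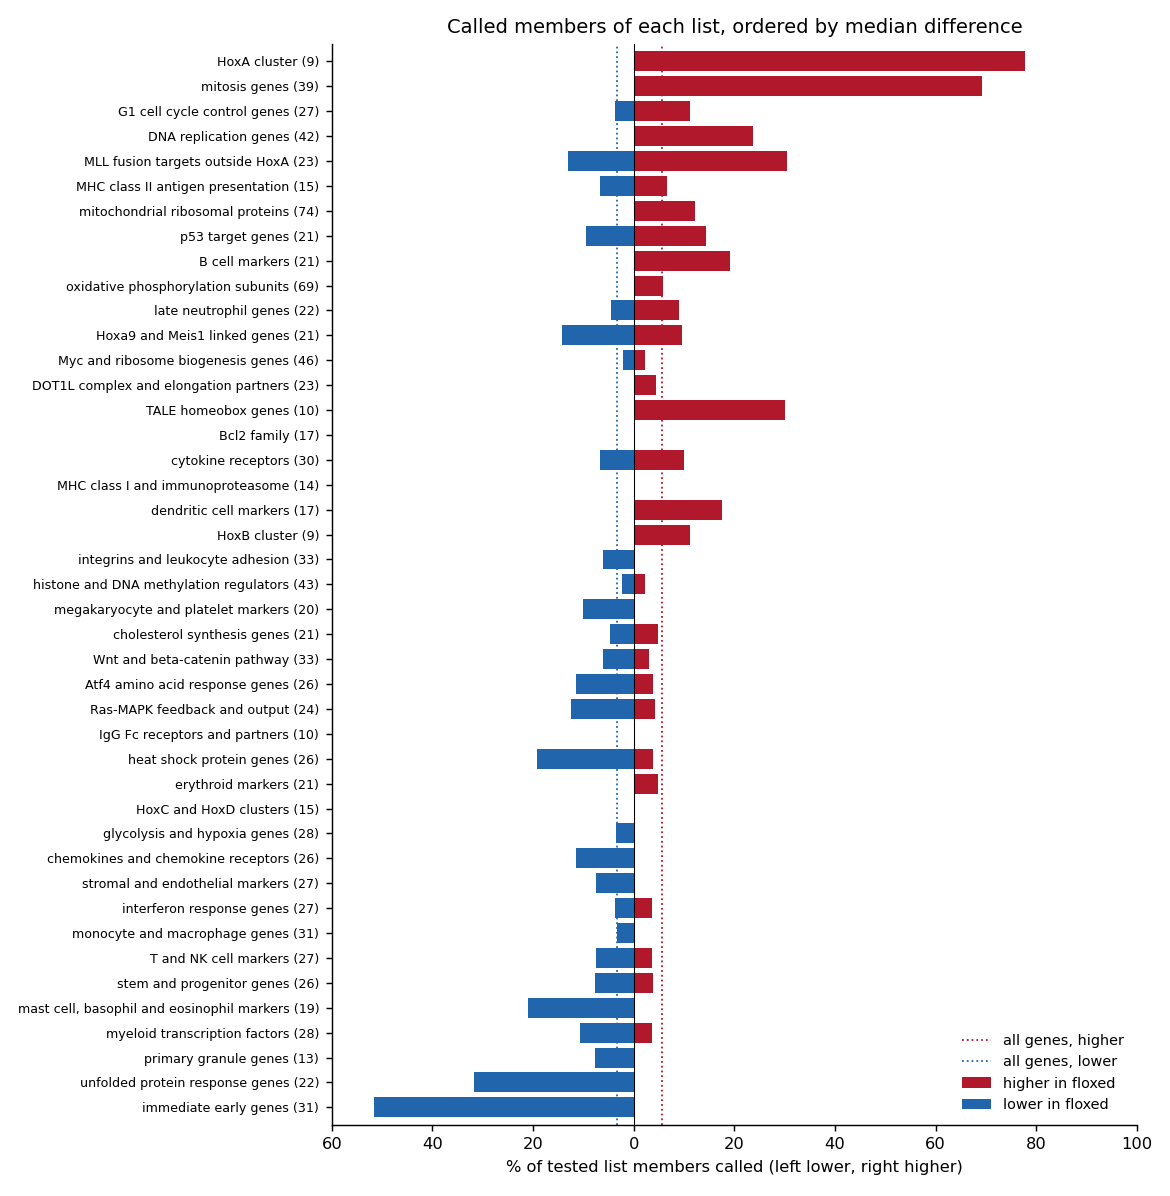
Share of each list's tested genes called higher or lower in floxed leukemias (percent, bars), with dotted lines at the shares over all genes tested, 5.58% higher and 3.31% lower. The HoxA and mitosis lists have the longest bars on the higher side and the immediate early list on the lower side.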

How the data were processed

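Gene expression was measured on 1-colour Affymetrix mouse arrays, 1 per RNA sample. The deposited table holds linear intensity values for 45101 probe sets, made by the authors with RMA per the submitters' processing notes; its version is not given in the sources used here. Levels are log2(intensity + 1) of these deposited values, so fold changes of dim genes are understated. Quantile normalization within RMA makes array distributions alike, array medians lie between 146 and 156, and precision is limited by how few arrays there are.

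Platform annotation gave 34958 probe sets 1 gene symbol, 932 several and 9211 none; 34754 matched the RefSeq GRCm38.p6 table by gene ID. Each of 18194 genes was tested by 1 probe set, that of the highest mean level on the 9 arrays, in a limma 3.58.1 group-means model (R 4.3.3) over all 9 arrays, with Benjamini-Hochberg adjustment and a threshold of 0.05. The adjusted p of a gene's other probe sets, and counts of its probe sets called, come from a separate fit. That fit used the same model on all 34958 probe sets, with the adjustment over those. Probe sets ending in _s_at or _x_at can bind related transcripts. The model code was tested on simulated data.

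Members and gene lists were chosen with earlier results of these data known. Named genes are the 12 widest differences on each side above background, the 6 brightest on each side with the other group in background, the drivers, HoxA and TALE genes, and up to 4 called members per list and direction; others are marked as named after their values were seen. Motifs other than TGATTNAT and TGACAG were chosen after the data were seen. Those 2 stood in windows of 1 and 2 of 8 HoxA genes, against 3.74% and 21.6% of all genes. Each stood in 1 of 7 TALE genes. Alternatives were the 6 arrays alone, the probe-set mean, a pseudocount of 32, other scalings, a background filter, array weights, trend and robust moderation, a replicate block, leaving out chromosomes 1, 5 and 15, and leaving out each array.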

Additional observations from a re-analysis of the deposited data

How the results depend on the processing

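The number of genes called moved most with the arrays kept: leaving out 1 array gave 681 to 1799 in all, 433 to 1141 higher and 248 to 658 lower. The lowest counts came without Hoxa9-Meis1 1 (681, 433 higher and 248 lower), without Hoxa9-Meis1 2 (823, 497 and 326) and without floxed 5 (1028, 668 and 360). Array weights gave 2543 (1596 higher and 947 lower), each probe set tested 3202 (1941 and 1261, 9.16% of 34958), and a 2-fold minimum 721 (401 and 320). Among genes called both ways, 0 had the opposite direction in any of the 16 alternative fits. Centring on the 75th percentile turned the 62.7% share of higher calls to 55.1%. The MLL-AF9 and Hoxa9-Meis1 arrays share no replicate numbers, and a replicate block over the MLL-AF9 numbers left 1617 calls, of which 1610 were among the 1618.

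Of 150 named genes 137 were called, 75 of them in each alternative fit that tested them; genes on chromosomes 1, 5 and 15 were not tested in the fit without those chromosomes. With only the 6 arrays in the fit 26 of the calls ended, among those given above with values 5031426D15Rik, Ms4a2, Gadd45b and Myc; the probe-set mean ended 13, a pseudocount of 32 and quantile normalization 11 each, and centring on the 75th percentile 10. Hoxa9 read 3.30 higher with the mean of its probe sets (limma adjusted p = 0.0128), reversing the brighter one, because the other probe set differs by 8.17. Dot1l turned to 0.11 with array weights, Meis2 to -0.073 and Pknox1 to -0.010 with the probe-set mean. Leaving out 1 array gave -0.16 to 0.13 for Dot1l (above 0 without floxed 5), -0.044 to 0.16 for Meis3 (below 0 without Hoxa9-Meis1 3) and -0.017 to 0.22 for Pknox1 (below 0 without Hoxa9-Meis1 1). The cause of these turns was not tested. Of the list medians 20 of 43 changed sign in some fit, with late neutrophil genes the widest of them (-0.05 to 0.42), and those of HoxA, mitosis, DNA replication, unfolded protein and immediate early genes did not.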

Other observations

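Immunoglobulin genes were chosen for a look after their values were seen. Of 23 immunoglobulin heavy, light and joining chain symbols 7 were higher and 0 lower, at a median difference of 0.75, against 5.58% and 3.31% of all genes. Jchain, which joins secreted antibody, read 9.12, 10.40 and 11.07 on the floxed arrays and 7.90, 7.13 and 8.04 on the Hoxa9-Meis1 arrays (5.68-fold, limma adjusted p = 0.0104). Igha, the IgA constant region, read 12.39, 12.78 and 13.59 against 11.51, 10.40 and 11.54 (3.40-fold, limma adjusted p = 0.0180). Mzb1, a chaperone of antibody-secreting cells, differed by 1.94 (SE 0.39, limma adjusted p = 0.0177). The immunoglobulin probe sets bind related sequences and are not independent, and Cd79a, a B cell receptor chain, did not pass (0.44). Leaving out 1 array ended the call of Mzb1 (Hoxa9-Meis1 1 or 2, up to 0.0660), where the array and the limma adjusted p without it stand in parentheses.

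Single genes of inflammatory signalling were also picked after their values were seen, for being lower in floxed leukemias, and say nothing of such genes as a group. Osm, the cytokine oncostatin M, read 8.49, 8.001 and 8.30 on the floxed arrays and 10.57, 9.98 and 10.75 on the Hoxa9-Meis1 arrays (4.49-fold lower, limma adjusted p = 0.00270). Nfkbiz and Tnfaip3, feedback regulators of NF-kappa-B, differed by -2.75 and -1.93, Tnf by -1.72 and the inflammasome sensor Nlrp3 by -1.83. Hoxa9-Meis1 2 was the lowest of its group in each of these 5 genes. Ppp1r15a, the GADD34 stress phosphatase subunit, differed by -3.15. Nfkbia, in the same feedback loop, differed by 0.05 and did not pass. The calls of Nfkbiz (floxed 5 or Hoxa9-Meis1 1, up to 0.0716), Tnfaip3 (Hoxa9-Meis1 1, 0.0581), Tnf (floxed 5 or 6 or any Hoxa9-Meis1 array, up to 0.133) and Nlrp3 (any floxed array or Hoxa9-Meis1 1 or 3, up to 0.129) ended when 1 array was left out (array and limma adjusted p in parentheses).

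Wide differences outside the lists included Lgr4, a receptor of R-spondins (3.99), Mylk, the myosin light chain kinase (3.92), Dsp, desmoplakin of cell junctions (3.37), Rbp4, the plasma retinol carrier (3.33), and Afp, alpha-fetoprotein (3.22), all higher in floxed leukemias. Lower ones included the kinase Pim2 (-3.37), coagulation factor F7 (-2.97), Stat4 (-2.74) and Mitf, a transcription factor that mast cells need (-2.29). Without the array named, limma's adjusted p no longer met the threshold for Dsp (floxed 5 or Hoxa9-Meis1 2, up to 0.0560).

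Called genes also lay side by side. Among 18032 genes with a place in the RefSeq GRCm38.p6 order, 6 runs of at least 4 neighbours were all higher in floxed leukemias, and 0 runs were all lower. The longest held 7 genes on chromosome 6, from Skap2 through Hoxa2, Hoxa3, Hoxa4 and Hoxa5 to Hoxa7. The other run on chromosome 6 held 6 genes from Sinhcaf (2.22) through Dennd5b to Resf1 (1.31). Others held 5 genes around Sgk3 (1.80) and Tcf24 on chromosome 1, and 4 genes each around Slc4a8 on chromosome 15, Baz2b (1.44) and Ly75 on chromosome 2, and Cdkn2c and Faf1 (1.46) on chromosome 4. Neighbours can share transcripts read by one probe set, which was not tested. The call of Resf1 (any floxed array or Hoxa9-Meis1 1 or 2, up to 0.128) needed the array named (limma adjusted p without it).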
